A study of Mus musculus with 12 samples.

Results

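The transcription factor AP-1 and the immediate early genes were examined in primary mouse adult fibroblasts (MAFs) treated with thymol. In all, 10 genes were listed by symbol: the FOS family (*Fos*, *Fosb*, *Fosl1* and *Fosl2*), the JUN family (*Jun*, *Junb* and *Jund*), and 3 further early response genes, *Egr1*, *Ier2* and *Ier3*. Of these 10, 9 had a row among the 10697 genes of the deposited table. *Fosb* had no row and was not analysed here. The cells had been grown out of tissue biopsies of wild-type C57BL/6J mice in high-glucose medium with fetal bovine serum. They received 100 µM thymol, a phenolic monoterpene of thyme and oregano oils, dissolved in DMSO, or an equal volume of DMSO alone. After 24 h, transcripts were counted by QuantSeq 3′ mRNA sequencing in 6 libraries per group. The labels do not say whether the 6 came from separate animals or cultures, so the p-values below measure the spread between these libraries, which may be technical.

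AP-1 is a dimer of basic leucine zipper proteins. FOS proteins bind DNA chiefly as partners of JUN proteins, whereas JUN proteins can also pair with each other. ATF and MAF relatives can take part in such dimers too. Immediate early genes are switched on within minutes of serum, growth factors, cytokines or stress, through mitogen-activated protein kinases and factors such as SRF, ELK and CREB that already sit in the cell. In fibroblasts *Fos*, *Egr1* and *Ier2* respond to serum in brief bursts and their mRNAs decay quickly, while *Fosl1* and *Fosl2* are induced later and last longer, and *Jund* is expressed at a steady level. AP-1 acts on genes of proliferation, matrix breakdown and inflammation.

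After 24 h of thymol, *Fos*, *Fosl2* and *Junb* were lower, whereas the rest of the group was not past the threshold in either direction. *Fos* fell by 41.2%, *Fosl2* by 16.8% and *Junb* by 14.8%. In each of the 3 the 2 groups of libraries did not overlap, a separation found in either direction for 1.68% of all genes. These 3 of 9 measured genes compare with 1.57% of all genes that were lower at the same threshold, an adjusted p-value of 0.05 in limma, and 0.654% that were higher. The 9 genes had a median log2 difference of -0.051, thymol minus DMSO, beside 0.0026 over all genes.

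The promoters of these 3 genes are shown with that of *Jun*, the founding JUN gene, whose level did not pass the threshold. Each runs 5′ to 3′ on the gene's own strand from 250 bases before to 50 bases after the RefSeq start (GRCm38.p6), at chr12:85473640-85473939 on the plus strand for *Fos*, chr5:32136222-32136521 on the plus strand for *Fosl2*, chr8:84978699-84978998 on the minus strand for *Junb* and chr4:95052173-95052472 on the minus strand for *Jun*. Capitals mark matches to the motifs searched.
Fos: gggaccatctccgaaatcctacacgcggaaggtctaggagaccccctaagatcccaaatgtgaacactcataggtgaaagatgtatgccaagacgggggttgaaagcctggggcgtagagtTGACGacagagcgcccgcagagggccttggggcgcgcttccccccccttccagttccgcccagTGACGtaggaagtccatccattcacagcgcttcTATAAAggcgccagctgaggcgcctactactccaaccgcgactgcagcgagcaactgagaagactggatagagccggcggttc
Fosl2: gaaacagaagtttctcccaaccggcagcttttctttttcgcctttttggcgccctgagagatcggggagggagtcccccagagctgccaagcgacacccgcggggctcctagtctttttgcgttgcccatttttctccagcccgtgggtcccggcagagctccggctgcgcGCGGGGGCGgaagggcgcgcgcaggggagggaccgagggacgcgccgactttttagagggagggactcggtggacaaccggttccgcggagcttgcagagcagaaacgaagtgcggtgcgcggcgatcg
Junb: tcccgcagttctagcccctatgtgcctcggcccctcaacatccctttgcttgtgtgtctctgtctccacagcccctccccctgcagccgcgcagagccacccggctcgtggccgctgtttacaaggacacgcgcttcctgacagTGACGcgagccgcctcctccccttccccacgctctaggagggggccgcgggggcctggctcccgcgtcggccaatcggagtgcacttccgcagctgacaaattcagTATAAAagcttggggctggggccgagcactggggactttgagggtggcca
Jun: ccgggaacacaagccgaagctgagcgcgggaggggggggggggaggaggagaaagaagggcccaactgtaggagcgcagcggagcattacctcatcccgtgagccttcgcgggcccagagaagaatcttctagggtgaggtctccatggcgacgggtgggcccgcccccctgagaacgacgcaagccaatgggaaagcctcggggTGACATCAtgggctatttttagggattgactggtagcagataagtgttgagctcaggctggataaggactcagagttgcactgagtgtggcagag

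The motifs were searched on both strands. TGACG is the core of the cyclic AMP response element (CRE) read by CREB and ATF proteins, and lies within the full CRE TGACGTCA. TGAGTCA and the variant TGACATCA are AP-1 sites, GCGGGGGCG is an EGR site, TATAAA is the TATA box, and the CArG box is bound by SRF. *Fos* held TGACG with first bases 129 and 66 bases before the start and a TATA box 33 bases before it. *Junb* held TGACG at 106 bases before its RefSeq start and a TATA box beginning at that start itself. GENCODE places the start of *Junb* at 84978718, within this window and downstream of this TATA box. The *Junb* distances therefore hold for the RefSeq start only. *Fosl2* held an EGR site at 79 bases before its RefSeq start, and *Jun* held TGACATCA at 45 bases before its own. The whole *Fosl2* window lies inside the GENCODE gene, which begins at 32135801, so its EGR site is upstream of the RefSeq start only. The full CRE, TGAGTCA and the CArG box were not in any of these 4 windows. Sequence more than 250 bases before the start was not searched, so these genes may hold such sites farther upstream. TGACG occurred in 20.8% of all 32851 RefSeq promoters of this length, TATAAA in 13.6%, GCGGGGGCG in 2.91%, TGACATCA in 3.62%, TGAGTCA in 5.20%, TGACGTCA in 1.79% and the CArG box in 1.63%. Of the 10 genes 7 had a promoter in the RefSeq table. *Fosb* held TGACG at 60 bases and an EGR site at 50 bases before its start, and the windows of *Jund* and *Ier3* held none of these motifs.

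Levels below are log2 CPM, the log2 of read counts scaled to a common library size (CPM) by the authors, with a small count added. The table kept the read counts in the steps of its low values. The recovered totals, over the genes of the table only, ran from about 5435985 to about 9049796 reads per library. The libraries, labelled as fibroblast, also held macrophage transcripts. Fibroblast markers were measured for 18 of 20 genes, and their sum was 15725 to 16784 CPM with DMSO and 14563 to 15259 with thymol, ranges that do not overlap, with 3 genes lower and 0 higher in limma. All 20 macrophage markers were in the table, at 20719 to 22720 CPM with DMSO and 20774 to 24876 with thymol, with 1 gene higher and 2 lower. T and B lymphocyte markers had no rows (0 of 10), 2 of 10 endothelial markers summed to at most 9.19 CPM and 1 keratinocyte marker of 10 to at most 12.8 CPM. Skeletal muscle had 2 markers of 10 in the table, at 132 to 159 CPM with DMSO and 92.6 to 125 with thymol. These ranges do not overlap, and 1 of the 2 genes was lower in limma. Adipocytes had 2 of 10, at 86.5 to 103 CPM with DMSO and 99.8 to 116 with thymol, with 0 genes higher or lower. Fewer cells of a type, less RNA per cell and a change in the marker genes alone cannot be told apart in such bulk samples. The part of the fibroblast or macrophage share in the results below was not tested.

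*Fos* (GRCm38 chromosome 12, 85473890 to 85477273, plus strand, as all gene positions here from GENCODE vM21) encodes c-FOS, the prototype of its family. With DMSO its level ran from 4.77 to 5.34 log2 CPM with a median of 4.95, and with thymol from 3.96 to 4.64 with a median of 4.23. Every thymol library lay below every DMSO library, a pattern seen for 1.16% of all genes. The means were 5.01 ± 0.20 and 4.24 ± 0.26 log2 CPM (SD, n = 6 each), a log2 difference of -0.77 ± 0.14 (SE, limma adjusted p = 0.00026), with a 95% interval of -1.04 to -0.49. The values rested on 190 to 322 reads per DMSO library and 84 to 190 per thymol library. In CPM without the added count, *Fos* averaged 32.1 ± 4.72 in the DMSO and 18.9 ± 3.51 in the thymol libraries (SD, n = 6 each).

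*Fosl2* (chromosome 5, 32135801 to 32157842, plus strand) encodes FRA-2, a FOS protein without the strong activation domain of c-FOS. It was the most abundant measured member of the FOS and JUN families, above 94.2% of all genes. Its levels ran from 8.03 to 8.20 log2 CPM with DMSO, with a median of 8.13, and from 7.79 to 7.93 with thymol, with a median of 7.86. The groups did not overlap and each spanned a narrow range. The log2 difference was -0.26 ± 0.056 (SE, limma adjusted p = 0.0023), with a 95% interval of -0.38 to -0.15. Each library held between 1322 and 2344 *Fosl2* reads.

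*Junb* (chromosome 8, 84974484 to 84978718, minus strand) encodes a JUN protein that restrains proliferation in many settings. Its levels ran from 7.40 to 7.58 log2 CPM with DMSO, with a median of 7.49, and from 6.99 to 7.36 with thymol, with a median of 7.28. The groups did not overlap, but the gap between the lowest DMSO and the highest thymol library was 0.046, and thymol replicate 1 lay well below the rest. The log2 difference was -0.23 ± 0.065 (SE, limma adjusted p = 0.041), with a 95% interval of -0.36 to -0.10. *Junb* overlaps *Prdx2* on the opposite strand, which differed by 0.0064 (limma adjusted p = 0.987). Whether the counting used strand is not given in the sources used here.

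The call for *Junb* was fragile. Leaving out DMSO replicate 1, 2, 3, 4 or 6 or thymol replicate 1, 2 or 3 ended the call, in 8 of the 12 such fits. Over the 12 fits its log2 difference ranged from -0.25 to -0.18 and its limma adjusted p-value from 0.032 to 0.15. By contrast *Fos* and *Fosl2* passed in all 12, at -0.84 to -0.70 and -0.28 to -0.25. Among the 3 odd-numbered libraries per group *Fos* differed by -0.87 and *Fosl2* by -0.33 (limma adjusted p = 0.0084 and 0.038), and among the 3 even-numbered ones by -0.66 and -0.20 (limma adjusted p = 0.096 and 0.27). *Fosl2* also lost its call, at an adjusted p-value of 0.066, when limma was run without a mean-variance trend.

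**Figure D1:**
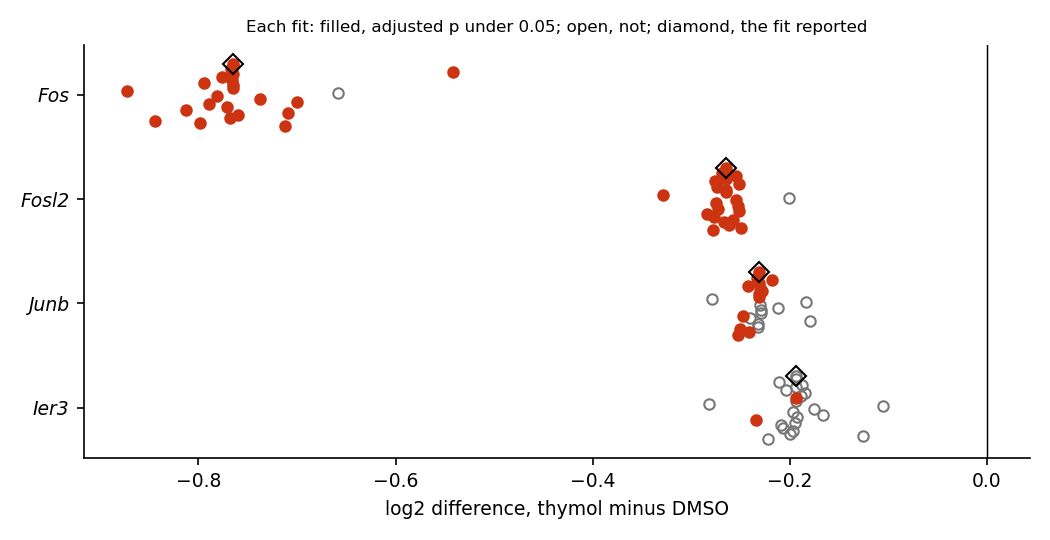
Log2 difference, thymol minus DMSO (horizontal axis), of *Fos*, *Fosl2*, *Junb* and *Ier3* in the fit reported (diamond) and in each of the 23 alternative fits; filled red points have an adjusted p-value under 0.05 and open points do not. All points lie below 0, and open points are 1 for *Fos*, 2 for *Fosl2* and 11 for *Junb*.

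**Figure D2:**
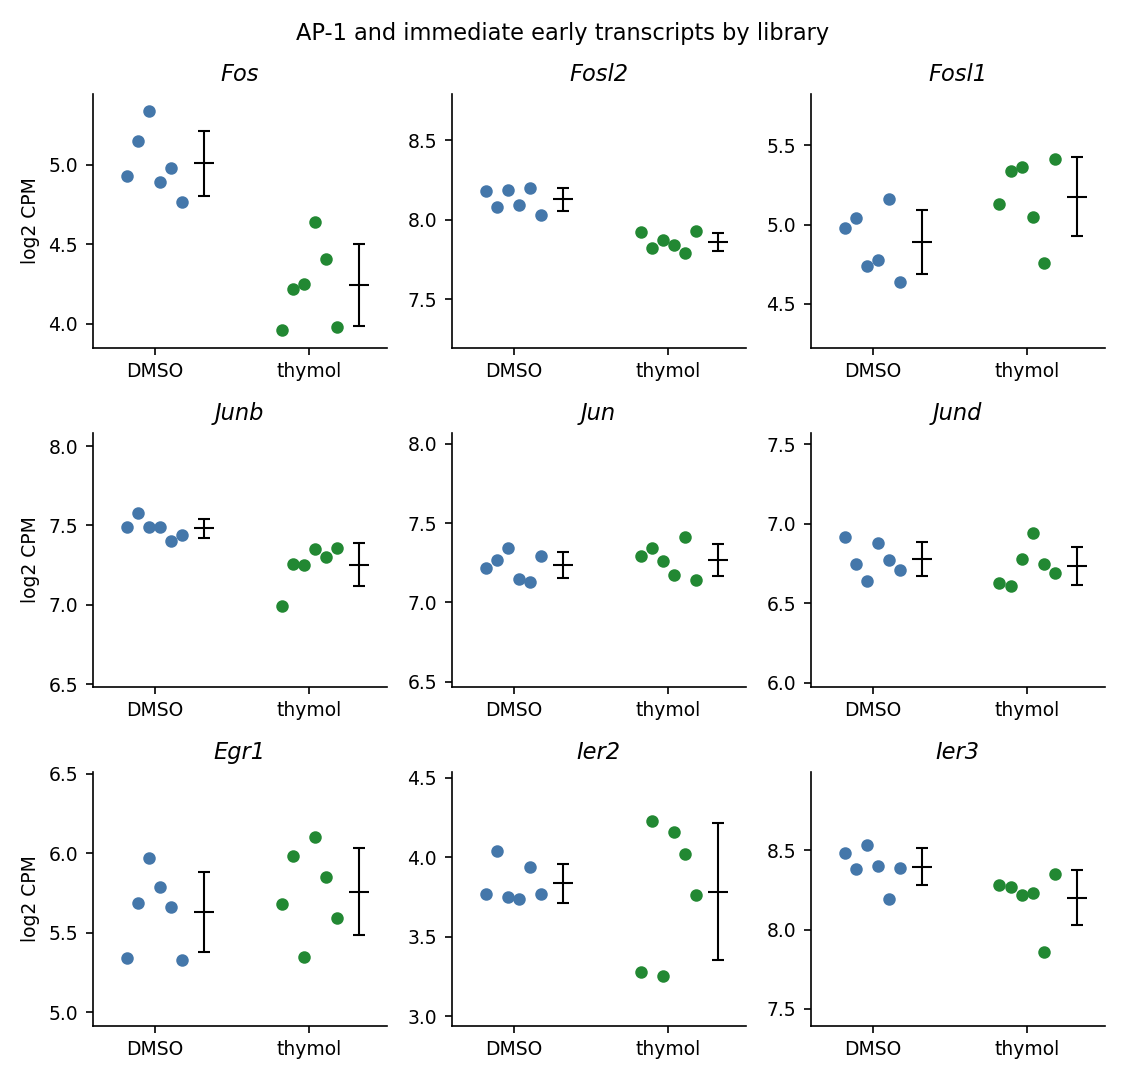
Level of each of the 9 measured genes (log2 CPM, vertical axis, every panel spanning the same range) in the 6 DMSO libraries (blue) and the 6 thymol libraries (green), ordered by replicate number, with the group mean and SD in black. For *Fos*, *Fosl2* and *Junb* the thymol points all sit below the DMSO points, and in the other 6 panels the groups overlap.

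*Fosl1* (chromosome 19, 5447547 to 5455946, plus strand) encodes FRA-1, the FOS protein tied to sustained ERK signaling and cell migration. Its levels ran from 4.64 to 5.16 log2 CPM with DMSO, with a median of 4.88, and from 4.76 to 5.41 with thymol, with a median of 5.24. The groups overlapped, and 3 thymol libraries exceeded every DMSO library. The log2 difference of 0.29 did not pass the adjustment (limma adjusted p = 0.30), with a 95% interval of 0.040 to 0.54. *Fosl1* overlaps *Ccdc85b* on the opposite strand, which differed by 0.0021 (limma adjusted p = 0.999).

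*Jun* (chromosome 4, 95049034 to 95052222, minus strand) encodes c-JUN, the usual partner of c-FOS. It ran from 7.13 to 7.34 log2 CPM with DMSO, with a median of 7.25, and from 7.14 to 7.41 with thymol, with a median of 7.27. The 2 ranges covered almost the same span. The antisense gene *Junos*, which overlaps *Jun*, had no row in the table. Its log2 difference was 0.035 (limma adjusted p = 0.92), and the 95% interval of -0.096 to 0.17 places the thymol level between 93.5% and 112% of the DMSO level.

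*Jund* (chromosome 8, 70698949 to 70700616, plus strand), a JUN gene that most cells express steadily, ran from 6.64 to 6.92 log2 CPM with DMSO and from 6.61 to 6.94 with thymol. The medians were 6.76 and 6.72. Its log2 difference was -0.044 (limma adjusted p = 0.90, 95% interval -0.19 to 0.10). Its thymol values enclosed the DMSO values.

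*Ier3* (chromosome 17, 35821684 to 35822923, plus strand) encodes a survival factor phosphorylated by ERK, and was the most abundant of the 9 transcripts. It ran from 8.19 to 8.53 log2 CPM with DMSO, with a median of 8.39, and from 7.86 to 8.35 with thymol, with a median of 8.25. All 6 thymol values lay below the DMSO mean, and 1 lay below every DMSO library. The log2 difference of -0.19 missed the threshold (limma adjusted p = 0.11, 95% interval -0.32 to -0.066). It passed without DMSO replicate 5, at -0.23 (limma adjusted p = 0.044).

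*Egr1* (chromosome 18, 34859823 to 34864984, plus strand) encodes a zinc finger factor that is induced by serum alongside *Fos*. It ran from 5.33 to 5.97 log2 CPM with DMSO, with a median of 5.67, and from 5.35 to 6.10 with thymol, with a median of 5.76. Its log2 difference was 0.13 (limma adjusted p = 0.74), with a 95% interval of -0.096 to 0.35. The libraries of each group were spread widely and the groups covered the same span.

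*Ier2* (chromosome 8, 84661331 to 84662852, minus strand), which encodes a small nuclear protein, was the least abundant of the 9, at 59 to 145 reads per library. It ran from 3.74 to 4.04 log2 CPM with DMSO, with a median of 3.77, and from 3.25 to 4.23 with thymol, with a median of 3.89. Thymol replicates 1 and 3 were the lowest of the 12 libraries, and replicates 2 and 4 the highest. Its log2 difference was -0.051 (limma adjusted p = 0.96), and the 95% interval of -0.42 to 0.32 was the widest of the 9.

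**Figure D3:**
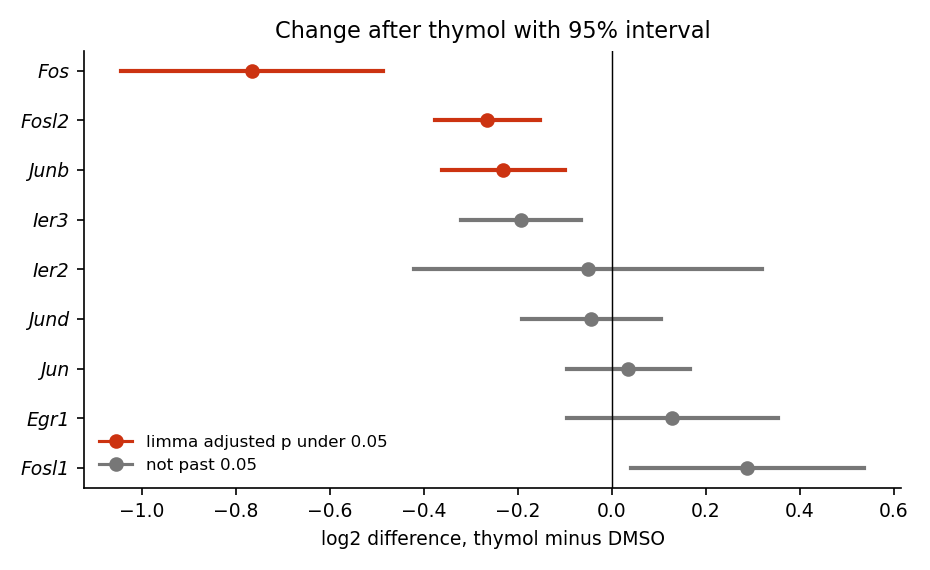
Log2 difference, thymol minus DMSO, of each measured gene (point) with its 95% interval from limma (line), ordered by size; red marks an adjusted p-value under 0.05. *Fos*, *Fosl2* and *Junb* lie below 0, while the intervals of *Jun*, *Jund*, *Egr1* and *Ier2* cross 0 and those of *Ier3* and *Fosl1* do not, although neither passed the adjustment over all genes.

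The next comparison asked whether the members differed from each other in their response. For each of the 36 pairs, the difference of the 2 log2 levels was taken in each library, and DMSO and thymol libraries were relabelled in every possible way (exact permutation test, two-sided), with p-values adjusted over the 36 pairs. The smallest p-value this test can give is 0.00216. Of the 36 pairs, 14 passed, and all 8 pairs that held *Fos* were among them. *Fos* fell relative to *Jun* by a log2 difference of -0.80, to *Junb* by -0.53 and to *Egr1* by -0.89. *Jun* and *Egr1* themselves did not pass the threshold in limma. Each of these differences held in 6 of 6 thymol libraries against every DMSO library (exact permutation adjusted p = 0.013 each). Against *Fosl2*, which also fell, the difference was -0.50 (exact permutation adjusted p = 0.031).

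Within the FOS family the split was widest between *Fos* and *Fosl1*, at -1.05, and *Fosl1* parted from *Fosl2* by 0.55 in 6 of 6 thymol libraries (exact permutation adjusted p = 0.013 each). In the JUN family *Junb* parted from *Jun*, with a difference of 0.27 for *Jun* minus *Junb* (exact permutation adjusted p = 0.039), but its separation from *Jund*, at -0.19, did not pass (exact permutation adjusted p = 0.073). *Fosl2* fell relative to *Jun* by a log2 difference of -0.30 and relative to *Jund* by -0.22 (exact permutation adjusted p = 0.019 and 0.042). *Fosl2* and *Junb* themselves differed by -0.034, with a 95% interval of -0.21 to 0.14. The pairs that passed numbered 8 to 15 when 1 library was left out, with 8 without DMSO replicate 3 or 6 and 9 without DMSO replicate 2, thymol replicate 2 or thymol replicate 3.

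QuantSeq takes about 1 read per transcript from its 3′ end, so the levels of different genes can be set side by side in CPM without dividing by length. On this scale *Fosl2* made up 81.9% ± 1.28 of the reads of the 3 measured FOS genes in the DMSO and 80.8% ± 1.40 in the thymol libraries (SD, n = 6 each). *Fos* made up 9.40% ± 1.11 with DMSO and 6.59% ± 1.37 with thymol, and *Fosl1* 8.66% ± 1.00 and 12.6% ± 1.71. The *Fosl1* share ran from 7.37% to 9.88% with DMSO and from 10.0% to 14.1% with thymol, with no overlap. This share also moves with the FOS sum, which was lower with thymol. In CPM *Fosl1* itself overlapped, at 24.6 to 35.6 with DMSO and 26.9 to 42.3 with thymol, and it was not called. Thus with DMSO the 2 minor FOS transcripts, *Fos* and *Fosl1*, lay within their spread of each other, and with thymol *Fosl1* was the higher. The summed FOS level was 341 ± 18.5 CPM with DMSO and 288 ± 11.1 with thymol. These shares are descriptions and carry no test.

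In the JUN family *Junb* held 40.7% ± 0.843 of the reads in the DMSO and 36.9% ± 2.26 in the thymol libraries (SD, n = 6 each), *Jun* 34.3% ± 1.72 and 37.4% ± 2.94, and *Jund* 25.0% ± 1.83 and 25.7% ± 1.67. *Junb* therefore stood above *Jun* with DMSO, at 179 ± 7.58 against 150 ± 8.53 CPM, and level with it after thymol, at 153 ± 13.4 against 154 ± 11.1 CPM. The JUN sum was 439 ± 12.6 CPM with DMSO and 413 ± 18.4 with thymol, ranges of 417 to 453 and 382 to 435 that overlapped. JUN transcripts thus outnumbered FOS transcripts in both groups, although *Fosl2* outnumbered each JUN gene.

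**Figure D4:**
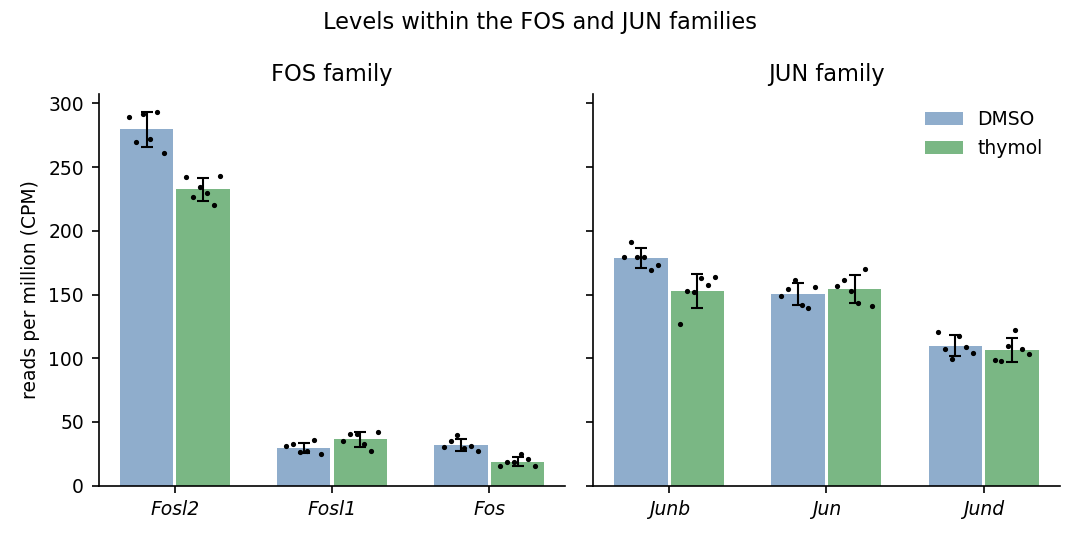
Level in CPM (vertical axis from 0) of the FOS and JUN family genes with DMSO (blue) and thymol (green); bars are means, lines the SD, and dots the 6 libraries of each group. *Fosl2* is the tallest bar in both groups and drops from 279.6 to 232.6 CPM, while *Jun* stays near 150.4 to 154.2 CPM.

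No tracking of members between libraries of the same group was detected, but with 12 libraries and 36 pairs moderate correlations could have been missed. Pearson correlations of the deviations from the group means over the 12 libraries ranged from -0.55 to 0.66 over the 36 pairs, with a median of -0.043, and 0 passed the adjustment, by Pearson's r or by Spearman's rho, while 2 had an unadjusted permutation p-value under 0.05. The highest was that of *Fos* and *Egr1*, with r = 0.66 (permutation p = 0.032, adjusted p = 0.68) and rho = 0.59 (permutation p = 0.065, adjusted p = 0.64), and r dropped to 0.34 without the 2 libraries farthest from the median. *Egr1* and *Ier2* followed, with r = 0.62 (permutation p = 0.043, adjusted p = 0.68), rho = 0.51 (permutation p = 0.13, adjusted p = 0.71) and r = 0.46 without the 2 farthest libraries. Among all genes, the deviations most like those of *Fos* belonged to *Adamts6*, *Mmp17* and *Mylip* (r = 0.87, 0.85 and 0.85 over 12 libraries). For *Fosl2* these were *Acp2*, *Exoc4* and *Hmox2* (r = 0.91 each), and for *Junb* *Eif4g1*, *Ints10* and *Eef1a1* (r = 0.92, 0.88 and 0.88). These are the 3 highest correlations over all other genes for each member, given as descriptions, and none of the 9 genes passed the threshold for thymol.

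The wider pathway was read from 5 lists of dimer partners, other immediate early genes, upstream kinases and factors, ERK feedback regulators and AP-1 target genes. Together they held 118 measured genes beside the 9 members. Of these 118, 8 passed the threshold, 3 higher and 5 lower, beside 2.22% of all genes, and 26 had an unadjusted p-value under 0.05, beside 11.8% of all genes.

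Among AP-1 dimer partners, 1 of 10 measured genes passed. This was *Atf3*, a stress-induced ATF protein that can pair with JUN, which rose. Its level ran from 4.58 to 5.02 log2 CPM with DMSO, with a median of 4.71, and from 5.08 to 5.28 with thymol, with a median of 5.22. All 6 thymol values lay above all DMSO values, a pattern of 0.524% of all genes. The log2 difference was 0.42 ± 0.12 (SE, limma adjusted p = 0.039). Its call was lost in 9 of the 12 fits without 1 library, all except those without DMSO replicate 3, DMSO replicate 6 or thymol replicate 4, and the 12 adjusted p-values ran from 0.024 to 0.11. The list median was -0.053.

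Of 37 measured further immediate early genes 4 passed, 1 higher and 3 lower, with a list median of -0.032. The higher was *Atf3*, which this list shares. *Nr4a1* encodes NUR77, an orphan nuclear receptor induced alongside *Fos*. It ran from 4.17 to 5.14 log2 CPM with DMSO, with a median of 4.61, and from 3.15 to 4.51 with thymol, with a median of 3.68. Of the 6 thymol values, 5 lay below every DMSO value. The log2 difference was -0.89 ± 0.18 (SE, limma adjusted p = 0.0013), and with 10 CPM added before the logarithm it was -0.56.

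*Cebpd*, a transcription factor of the acute phase response, ran from 6.61 to 6.80 log2 CPM with DMSO, with a median of 6.74, and from 6.16 to 6.53 with thymol, with a median of 6.39. The groups did not overlap (log2 difference -0.38, limma adjusted p = 0.0015). *Cebpd* lies across *Spidr* on the opposite strand, which differed by -0.014 (limma adjusted p = 0.99). *Txnip*, a glucose-responsive inhibitor of thioredoxin rather than a classical immediate early gene, ran from 7.71 to 8.02 log2 CPM with DMSO, with a median of 7.79, and from 7.19 to 7.64 with thymol, with a median of 7.53. It too was separated (log2 difference -0.35, limma adjusted p = 0.00071). *Egr2*, chosen after its value was seen because it lies far out in the plot of the wider lists, had a log2 difference of 0.87 that did not pass (limma adjusted p = 0.086). *Myc* at -0.28, *Dusp1* at -0.081, *Zfp36* at -0.11 and *Btg2* at -0.030, also picked after their values were seen, were not past the threshold.

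Among the 33 measured kinases and factors upstream of immediate early genes, 1 passed, with a list median of -0.056. It was *Crem*, a relative of CREB that binds the CRE. *Crem* ran from 4.00 to 4.72 log2 CPM with DMSO, with a median of 4.42, and from 3.57 to 4.12 with thymol, with a median of 3.86. Of the 6 thymol values, 5 lay below every DMSO value and 1 within the DMSO range. The log2 difference was -0.57 ± 0.16 (SE, limma adjusted p = 0.041), and its call was lost in 10 of the 12 fits without 1 library (adjusted p from 0.019 to 0.14), all except those without DMSO replicate 2 or thymol replicate 1.

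The 15 ERK feedback regulators include the member *Ier3*. Of these 15, 0 passed in limma and 4, with *Ier3* among them, had an unadjusted p-value under 0.05. With limma's voom on the recovered reads 1 passed. That was *Dusp4*, a phosphatase of ERK and JNK, which ran from 4.35 to 4.73 log2 CPM with DMSO, with a median of 4.57, and from 4.65 to 5.34 with thymol, with a median of 4.99. Of its thymol values 5 exceeded every DMSO value (log2 difference 0.42, limma adjusted p = 0.069, and 0.048 with voom).

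Among 26 genes known as AP-1 targets 3 passed, 2 higher and 1 lower, with a list median of -0.011. *Il6*, the cytokine interleukin-6, ran from 4.09 to 4.55 log2 CPM with DMSO, with a median of 4.20, and from 3.32 to 3.81 with thymol, with a median of 3.43. The groups did not overlap, and its log2 difference was -0.77 ± 0.17 (SE, limma adjusted p = 0.0033). *Mmp10*, the matrix protease stromelysin-2, went the other way. The DMSO libraries reached at most 3.48 log2 CPM, with a median of 3.01, and the thymol libraries ran from 3.14 to 4.62, with a median of 4.18. Of the thymol values 5 exceeded every DMSO value, on 43 to 143 reads per library. The log2 difference was 0.98 ± 0.21 (SE, limma adjusted p = 0.0036), or 0.53 with 10 CPM added before the logarithm.

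*Spp1*, which encodes osteopontin, was the most abundant of the named genes. It ran from 11.05 to 11.50 log2 CPM with DMSO, with a median of 11.28, and from 11.36 to 11.60 with thymol, with a median of 11.49. The groups overlapped, with 3 thymol values above every DMSO value (log2 difference 0.22, limma adjusted p = 0.018). Its call was lost without DMSO replicate 2, 3 or 5 or thymol replicate 6, where the adjusted p-value reached 0.11, or in the even-numbered libraries alone, where the difference was 0.079. It was also lost under quantile normalization (difference 0.18, limma adjusted p = 0.058) and without the mean-variance trend (limma adjusted p = 0.39). *Gm42793* is annotated across *Spp1* on the same strand, so reads of the 2 could have been split or discarded in counting.

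**Figure D5:**
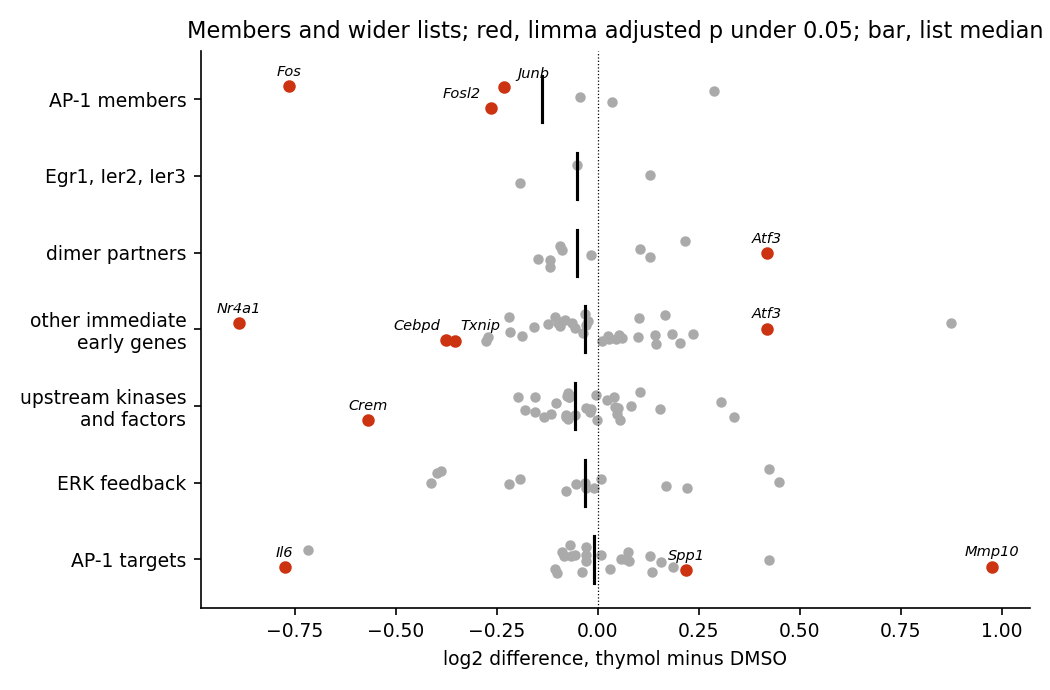
Log2 difference, thymol minus DMSO (horizontal axis), of each measured gene of the AP-1 members, the 3 other early response genes and the 5 wider lists; red points have a limma adjusted p-value under 0.05 and are named, and black bars are list medians. The red points fall on both sides of 0, from *Nr4a1* at -0.89 to *Mmp10* at 0.98, and every list median lies between -0.14 and 0.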

How the data were processed

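The 12 libraries were made with the QuantSeq 3′ mRNA-Seq FWD kit. The authors aligned reads to GRCm38 with STAR 2.5.3 and counted them per gene with HTSeq 0.6.1. They kept annotated genes that had 30 or more reads in 6 or more samples, and applied TMM scaling. In the file, 98.0% of genes met that minimum. The deposited values are log2 CPM with a prior count, 1 column per library. Depth was recovered from the steps of the low values: all values below 200 reads came out whole within a tolerance of 0.02. Reads are PCR copies without molecular identifiers. The prior of 1.57 to 2.62 reads shrinks fold changes where reads are few.

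All 12 libraries entered limma 3.58.1 (R 4.3.3; lmFit, then eBayes with its trend option; no covariate), with Benjamini-Hochberg adjustment over all 10697 genes and a threshold of 0.05. The deposited unit is log2, so no count model was fitted, other than limma's voom on recovered reads as an alternative. The procedures were tested on simulated data. Pairs of members were compared by exact permutation tests, and correlations by 100000 permutations within groups. The members, lists and tests were chosen with earlier results of these data known. Named genes are the members, genes of the wider lists past the threshold (up to 5 per list, or the 2 with the smallest p-values where none passed) and the 3 genes most correlated with each member that passed; others are said to be chosen after their values were seen. Coordinates are GENCODE vM21 on GRCm38, and promoter sequences are from RefSeq GRCm38.p6.

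Alternatives were limma without trend, voom, another pseudocount, a filter on low means, median centring, quantile normalization, array weights, a replicate block, the parity of the replicate number as a term or as a split, and leaving out each library.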

Additional observations from a re-analysis of the deposited data

Results flagged for a closer look

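In 3 cases the most extreme library of a group of 6 stood apart from its nearest neighbour by more than Dixon's 95% critical value allows. *Junb* in thymol replicate 1 was at 6.99 log2 CPM, and the next lowest thymol library at 7.25. *Txnip* in the same library was at 7.19 log2 CPM, and the next at 7.49. *Ier3* in thymol replicate 5 was at 7.86 log2 CPM, and the next at 8.22. Chance flags about 1 in 20 groups, and 36 groups were examined. Without thymol replicate 1 *Junb* differed by -0.18 and *Txnip* by -0.29 (limma adjusted p = 0.15 and 0.0029), and without thymol replicate 5 *Ier3* differed by -0.13 (limma adjusted p = 0.36).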

How the results depend on the processing

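*Fos* kept its direction in all 23 alternative fits and its call in all but the fit of the even-numbered libraries alone; *Fosl2* lost its call in that fit and without the mean-variance trend, and *Junb* in those 2, in the odd-numbered libraries alone and in 8 of 12 fits without 1 library. Without the trend 57 genes passed instead of 238, with 1 member (*Fos*) and 1 gene of the wider lists. The odd-numbered libraries gave 70 genes, 2 members and 3 genes of the wider lists. The even-numbered ones gave 0 members in limma, with 4 at an unadjusted p-value under 0.05, and 4 genes of the wider lists. Leaving out 1 library gave 172 to 270 genes, 2 to 4 members, 5 to 9 genes of the wider lists (5 without DMSO replicate 5), and 8 to 15 pairs of members whose changes differed. The difference of *Jun* turned to -0.022 in the even-numbered libraries, that of *Egr1* to -0.0285 in the odd-numbered ones, and that of *Ier2* to 0.20 in the even-numbered ones and to 0.050 and 0.056 without thymol replicate 1 or 3, in a range of -0.14 to 0.056 over the 12 fits without 1 library. None of these was called in any fit. The odd and even fits have fewer libraries, and the cause was otherwise not tested. With 10 CPM added, *Fos* differed by -0.54. The replicate numbers are shared by both groups, but same-numbered libraries deviated together with correlations of -0.034 to 0.20, and 1 of 6 numbers found its best match in its own number, so they were not taken as pairs. With the replicate block 332 genes and 4 members passed, the added member being *Ier3* (adjusted p = 0.023), and *Dusp4* passed (adjusted p = 0.0496). Among the wider lists, *Nr4a1*, *Cebpd*, *Txnip*, *Il6* and *Mmp10* kept their direction in every fit that held them and their call in all 12 fits without 1 library. Without the trend *Nr4a1*, *Cebpd*, *Txnip* and *Mmp10* missed the threshold (adjusted p = 0.095, 0.054, 0.12 and 0.088). In the odd-numbered libraries *Cebpd*, *Il6* and *Mmp10* missed it (adjusted p = 0.35, 0.19 and 0.13), and in the even-numbered ones *Il6* and *Mmp10* (adjusted p = 0.13 and 0.075). *Atf3* and *Crem* missed it in both splits (adjusted p = 0.29 and 0.29 odd, 0.49 and 0.46 even) and without the trend (adjusted p = 0.064 and 0.078). At 59 to 145 reads per library, *Ier2* was measured with a wide interval.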
